A study of Homo sapiens with 6 samples.

Results

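The promoters of 4 nuclear receptor genes were examined in PC-3 cells: ESR1 (estrogen receptor alpha), PGR (progesterone receptor), VDR (vitamin D receptor) and NR3C1 (glucocorticoid receptor). Their members are the CpG dinucleotides within 2 kb of the starts at 152128814 on chromosome 6 (ESR1), 101000544 on chromosome 11 (PGR), 48298814 on chromosome 12 (VDR) and 142783254 on chromosome 5 (NR3C1), all in hg19. The members were chosen with earlier results of these data known. The coverage rule itself used no methylation values. It kept a CpG with at least 10 reads in 2 or more SAM and 2 or more control libraries. This gave 146 of the 686608 CpGs that meet the same coverage rule genome-wide, with 29 at ESR1, 26 at PGR, 20 at VDR and 71 at NR3C1. A total of 248 CpGs in the 4 windows were listed in at least 1 library, and the rest failed the coverage rule. PC-3 is an established human prostate carcinoma line. One group of 3 libraries came from PC-3 cells given S-adenosylmethionine (SAM) at 160 µM for 5 days, and the other 3 came from PC-3 cells given phosphate-buffered saline (PBS) for 5 days. The cell line was the same in both groups, and the labels do not say whether replicates were separate cultures, so p-values measure only the spread between these libraries, which may be technical.

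SAM is the methyl donor that DNA methyltransferases use to place a methyl group on the cytosine of a CpG. Nuclear receptors are transcription factors switched by small lipophilic ligands: estradiol for ESR1, progesterone for PGR, the active form of vitamin D for VDR and cortisol for NR3C1. Dense methylation of a CpG-rich promoter generally goes with a silent gene, and loss of ESR1 and PGR expression with promoter methylation has been described in several carcinomas. The files hold no expression values, so receptor levels in these cells were not measured here.

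The word promoter describes the 4 windows unequally. At PGR none of the 26 CpGs lay upstream or nearer than 796 bases, and all were found 796 to 1798 bases downstream. At ESR1 1 of 29 CpGs was upstream, 9 bases from the start, and the other 28 reached 1543 bases downstream. Further RefSeq starts of ESR1 in the window lie 1974 and 483 bases upstream and 1428 bases downstream of the position used (GRCh38.p14). VDR had 11 of 20 CpGs upstream and NR3C1 had 41 of 71, and these sets spanned 627 bases upstream to 135 downstream and 747 upstream to 1000 downstream. PGR has more than one start in RefSeq, and in GRCh38.p14 the further ones lie 736 and 750 bases downstream of the first, just before the first CpGs read. For NR3C1, a gene with many alternative first exons, 5 RefSeq starts lie in the window, 1666, 793 and 547 bases upstream and 3 and 406 bases downstream of the position used here in GRCh38.p14. Distances below run to the cytosine on the plus strand, in the direction of transcription, and values are given in the order of replicates 1, 2 and 3.

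The 250 bases before the RefSeq start nearest to each position are shown for ESR1 and NR3C1, because they hold the ESR1 CpG beside which methylation changes most and the unmethylated core of NR3C1. RefSeq places them at chr6:151807432-151807681 on the plus strand and chr5:143403687-143403936 on the minus strand (GRCh38.p14), and both starts lie 3 bases downstream of the hg19 position used. The spacing of the listed hg19 CpGs fitted these sequences, with every listed CpG at a CG (7 of 7 at ESR1 and 24 of 24 at NR3C1 over the sequence and the 50 bases after it). Capitals mark the CpGs among the members, 1 at ESR1 and 17 at NR3C1.
ESR1: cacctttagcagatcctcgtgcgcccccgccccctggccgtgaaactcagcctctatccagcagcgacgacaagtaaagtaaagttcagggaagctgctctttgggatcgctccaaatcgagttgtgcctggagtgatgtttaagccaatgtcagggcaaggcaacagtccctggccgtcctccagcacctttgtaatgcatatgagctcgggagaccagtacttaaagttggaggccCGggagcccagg
NR3C1: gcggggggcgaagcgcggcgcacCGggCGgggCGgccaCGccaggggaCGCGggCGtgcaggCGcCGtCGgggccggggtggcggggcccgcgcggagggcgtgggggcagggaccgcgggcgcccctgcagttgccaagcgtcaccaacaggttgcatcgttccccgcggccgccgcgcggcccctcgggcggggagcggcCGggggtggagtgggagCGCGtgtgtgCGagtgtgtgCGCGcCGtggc
The ESR1 stretch holds 11 CG dinucleotides, the median of the 35116 promoter sequences in the RefSeq table, and the NR3C1 stretch holds 42, more than in 98.6% of them. Counted without overlaps, the GC box GGGCGG occurred 2 times on the printed strand of NR3C1 and not on its other strand. A further match on the printed strand overlaps 1 of these by 1 base. At ESR1 the GC box occurred 0 times on the printed strand and 1 time on the other. Of all 250-base sequences listed by RefSeq, 42.6% held this motif on at least 1 strand. Such matches describe letters only.

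Libraries were read to unequal depth, with coverage summed over listed positions of 33056018 to 183523792. In this sum, and in sums of reads over CpGs below, a read over several positions counts at each. Of the 146 CpGs, SAM replicate 2 listed 70 and control replicate 2 listed 74, while each other library listed 145 or 146. As a result 43 of the 146 were read in all 6 libraries, 3 of them at ESR1, 15 at PGR, 15 at VDR and 10 at NR3C1. By read coverage the libraries were split into 2 sets of 3, each with members of both treatments. Of all such splits, the one whose coverage correlated most inside sets relative to between them was taken. Set A held replicate 1 of SAM and replicates 1 and 3 of the controls, and set B held the rest. The mean correlation of log2 coverage between libraries, a description over CpGs, was 0.76 inside these sets and 0.447 between them. The next best split gave 0.683 and 0.499. Raw read numbers also differed between the sets at the receptors. The ESR1 CpG 727 bases downstream had 4888, 2781 and 4826 reads in the set A libraries and 810, 1201 and 337 in set B. Set B holds both replicates numbered 2, which had the lowest summed coverage, so total depth enters these numbers. Neighbouring CpGs were covered in stretches with nearly constant read numbers, as the plot of reads by library shows. CpGs of 1 stretch therefore share reads and are not independent. Reads copied during amplification cannot be recognised, so confidence intervals here cover counting error only.

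**Figure D1:**
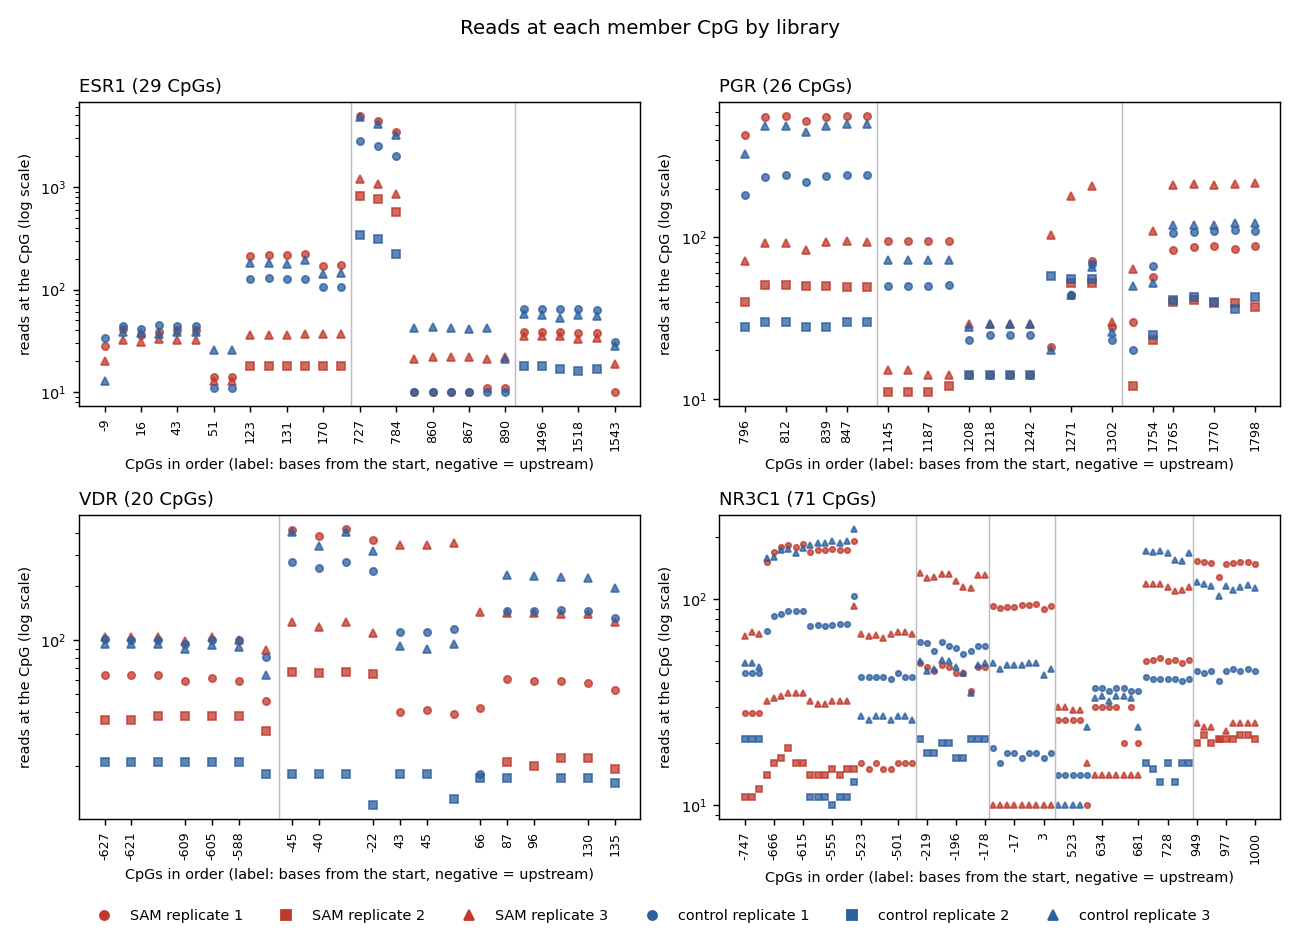
Reads (log axis) at each of the 146 CpGs by library, with CpGs in order of position and labelled by their distance from the start; vertical lines mark gaps of more than 100 bases. The ESR1 CpGs 727 to 784 bases downstream had 222 to 4888 reads per library, more than at any NR3C1 CpG, where the highest was 219, and both replicates numbered 2 are missing at many positions.

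The 4 promoters divided into a methylated pair, ESR1 and PGR, and an unmethylated pair, VDR and NR3C1. Over the 29 ESR1 CpGs the median level, taken as the mean of the libraries at each CpG, was 55.2%, with a range of 1.25 to 100%. PGR had a median of 32.9% and a range of 3.88 to 98.3%. At VDR the median was 0.305% and no CpG exceeded 8.18%, and at NR3C1 the median was 0 and the highest CpG stood at 2.5%. Among ESR1 CpGs 4 were under 20%, 17 were between 20 and 80% and 8 were above 80%. PGR had 9, 16 and 1 in these classes, and all VDR and NR3C1 CpGs were under 20%. Genome-wide 13.4% of CpGs meeting the coverage rule fell between 20 and 80%, against 58.6% at ESR1 and 61.5% at PGR. The intermediate class was thus the largest at both sex steroid receptors.

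**Figure D2:**
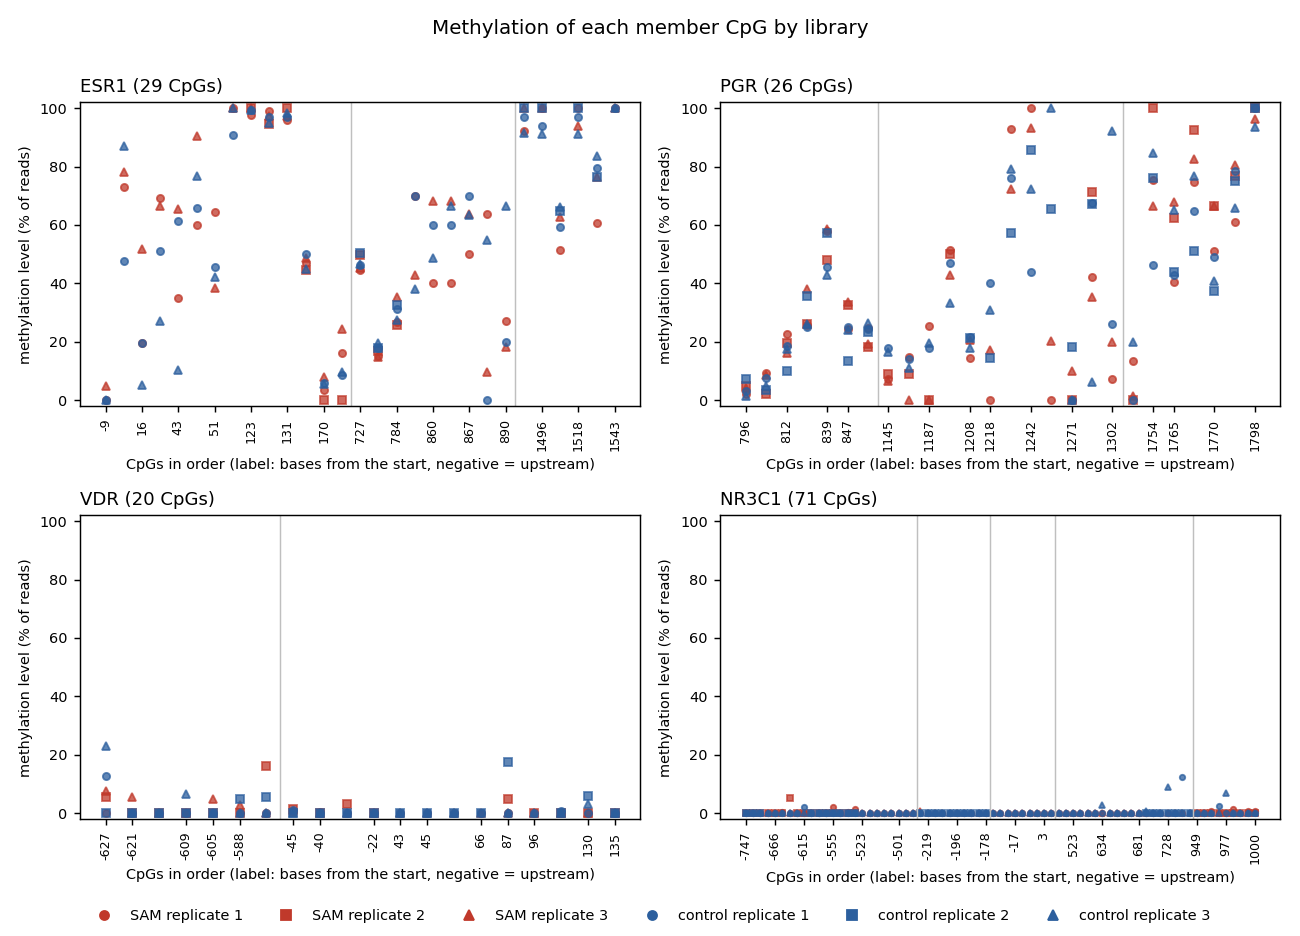
Methylation level (percent of reads carrying C) at each of the 146 CpGs by library, in order of position, labelled by bases from the start; vertical lines mark gaps of more than 100 bases. ESR1 and PGR alternate between low, intermediate and high CpGs, and VDR and NR3C1 stay near 0 apart from single raised values of up to 23.2% and 12.5%.

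The order of the 4 was compared on CpGs read in all libraries. PGR stood at 38.4 to 48.1% over 15 CpGs and ESR1 at 28.8 to 33.6% over 3 CpGs, with no overlap between their libraries. VDR stood at 0.0831 to 2.26% and NR3C1 at 0 to 0.443%, and these ranges overlapped. The order of the methylated pair depends on the CpGs used. Over the CpGs read in each of SAM replicates 1 and 3 and control replicates 1 and 3, a set chosen after seeing the data, ESR1 was the higher, at 57.3, 61.1, 56.6 and 57.2% in those libraries over 29 CpGs, and PGR stood at 37.5, 38.3, 36.1 and 38.8% over 25. Fixed 4 kb windows of the genome with at least 10 CpGs read in all libraries had a median level of 8.49%. Of these 10469 windows, 66.6% were below PGR, 63.0% below ESR1, 37.4% below VDR and 0.917% below NR3C1.

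Methylation at ESR1 changed sharply from one CpG to the next around the start. The CpG 9 bases upstream carried 0 of 28 methylated reads in SAM replicate 1, 1 of 20 in SAM replicate 3, 0 of 34 in control replicate 1 and 0 of 13 in control replicate 3. The CpG 9 bases downstream, 18 bases away, stood at 73.2, 78.1, 47.7 and 87.2% in the same libraries. No library was above 5% at the first or below 47.7% at the second. Further down, the CpGs at 123, 128 and 131 bases averaged 99.3, 96.5 and 97.6%. At 143 bases the level was 46.8, 44.4 and 48.6% with SAM and 50 and 44.8% in control replicates 1 and 3. At 170 bases it was 3.53, 0 and 8.11% with SAM and 5.71 and 5.59% in the same controls. Methylation thus fell from nearly full at 131 bases to under 10% at 170 bases in each of the 5 libraries that listed these CpGs.

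The deepest ESR1 CpGs lay 727 to 784 bases downstream. At 727 bases downstream the level was 44.6, 49.8 and 45.2% with SAM and 46.3, 50.4 and 46.7% in controls, from 337 to 4888 reads. At 784 bases it was 26.7, 25.7 and 35.4% with SAM and 31.1, 32.4 and 27.4% in controls. The groups overlapped at both CpGs. Between them, at 777 bases, the groups did not overlap, and that CpG is given with the site tests. A last stretch from 1488 to 1543 bases downstream held 6 CpGs, of which 4 averaged 96.1 to 100% and the others, at 1500 and 1523 bases, 60.9% and 75.3%. Full and intermediate CpGs alternated there too.

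At PGR methylation rose with distance from the start across 3 stretches. The first, 796 to 853 bases downstream, held 7 CpGs and averaged 23.8, 21.7 and 25.5% with SAM and 21.3, 21.4 and 20.5% in controls. Within it the CpG nearest to the start, at 796 bases, stood at 2.1, 5.0 and 4.23% with SAM and 3.3, 7.14 and 1.51% in controls, and the highest, at 839 bases, averaged 51.7%. The second stretch, 1145 to 1302 bases downstream, ranged from 4.69% to 79.0% between its 12 CpGs. The third, 1742 to 1798 bases downstream, averaged 59.5, 71.2 and 65.9% with SAM and 54.5 and 63.8% in control replicates 1 and 3, over 7 CpGs. Its outermost CpG, at 1798 bases, stood at 93.5 to 100% in all 6 libraries. The SAM values of the first stretch lay above all 3 control values, by 2.58 points on average. The exact permutation p for these 7 CpGs was 0.10, the least 3 libraries against 3 can give.

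Steps between neighbouring CpGs were measured over pairs at most 20 bases apart. The median step was 24.7 points over 21 ESR1 pairs and 21.4 points over 20 PGR pairs, against 1.13 points over 498576 pairs genome-wide. Much of that gap goes with level, since pairs averaging 20 to 80% had a median step of 17.5 points genome-wide, 29.8 points at ESR1 and 22.3 points at PGR (15 pairs each). Steps over 25 points made up 66.7% of the ESR1 pairs in that class, 46.7% of the PGR pairs and 36.3% of all such pairs. These pairs share reads and are described without a test. The largest PGR step was 67.8 points, between the CpGs at 1742 and 1754 bases. In VDR and NR3C1 the largest steps were 7.23 and 2.5 points.

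VDR was unmethylated on both sides of its start. The CpG nearest to the VDR start, 22 bases upstream, had 0 methylated reads in all 6 libraries, from 12 to 362 reads. A count of 0 allows up to 3 reads of the total, and 8 of the 20 CpGs had no methylated read in any library. Over all its listed CpGs the share of methylated reads was 5 of 2447 in SAM replicate 1 (0.204%, 95% exact Clopper-Pearson interval 0.0664 to 0.476%), 11 of 624 in SAM replicate 2 and 23 of 3057 in SAM replicate 3. In control replicates 1 to 3 it was 17 of 2802, 6 of 343 and 35 of 3473. The groups overlapped. The CpG farthest upstream, at 627 bases, was the highest, at 0, 5.56 and 7.62% with SAM and 12.7, 0 and 23.2% in controls. At the near end of the same stretch, 572 bases upstream, SAM replicate 2 had 5 of 31 reads methylated and control replicate 2 had 1 of 18, and the other 4 libraries had none.

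NR3C1 was nearly free of methylation throughout. Of its 71 CpGs 54 had no methylated read in any library, 76.1% against 25.8% of all CpGs under the coverage rule. Methylated reads numbered 14 of 5768 in SAM replicate 1 (0.243%), 1 of 423 in SAM replicate 2 and 1 of 3842 in SAM replicate 3. In controls they numbered 8 of 3284 in replicate 1, 0 of 440 in replicate 2, which allows a share of up to 0.682%, and 25 of 6085 in replicate 3 (0.411%, 95% exact interval 0.266 to 0.606%). The CpGs in capitals in the printed NR3C1 sequence held 1 methylated read in all, at 223 bases upstream in SAM replicate 3. Of these, the CpG nearest to the start, 2 bases upstream, had 0 methylated reads of 95, 10, 18 and 49 in SAM replicates 1 and 3 and control replicates 1 and 3. Each of the 17 NR3C1 CpGs with any methylated read had them in 1 library alone. At 728 bases downstream control replicate 3 had 15 of 167 reads methylated and the 4 other libraries listing that CpG had none. At 735 bases control replicate 1 had 5 of 40 and the others none, and at 977 bases control replicate 3 had 8 of 116 and the others none. In the SAM group the like was seen 555 bases upstream, with 4 of 175 reads in SAM replicate 1 and none elsewhere.

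The treatment comparison asked whether SAM shifted methylation of these promoters. Each promoter was averaged over its CpGs read in all 6 libraries, each CpG with equal weight, and the groups were compared by an exact two-sided permutation test, which cannot give less than 0.10 with 3 libraries against 3. PGR stood at 40.8, 48.1 and 45.6% with SAM and at 39.9, 41.3 and 38.4% in controls. The means were 44.8% ± 3.71 (SD, n = 3) and 39.9% ± 1.44 (SD, n = 3), and the difference was 4.98 points (SE 2.3). The groups overlapped, since SAM replicate 1 lay below control replicate 2 (exact permutation p = 0.20, Benjamini-Hochberg adjusted over 4 genes 0.60). The difference was 1.66 points inside coverage set A and 5.58 points inside set B, 6.99 points without SAM replicate 1 and 3.34 points without SAM replicate 2. Over all 26 PGR CpGs, with each library using those it listed, it reversed to -2.4 points, and over the 25 CpGs of the 4 libraries named above it was 0.483 points. With plus-strand reads alone (13 CpGs) it was 5.75 points, and the groups did not overlap (exact permutation p = 0.10). Of the 4 kb windows genome-wide, 97% had a smaller absolute difference than PGR, but they were not matched by level and their median level was 8.49%. Differences vary with level. For single CpGs genome-wide the median absolute difference was 0.0944 points under 20%, 7.5 points at 20 to 80% and 1.72 points over 80%. The PGR difference was thus larger than the SD of either group and did not pass the test. It changed sign only where each library used its own listed CpGs, which are not the same in every library. Its size varied with the CpGs included.

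ESR1 went the other way on the CpGs read in all libraries, which are only the 3 deep CpGs 727 to 784 bases downstream. These averaged 28.8, 30.8 and 31.8% with SAM and 31.7, 33.6 and 31.2% in controls. Groups overlapped at a difference of -1.74 points (SE 1.14, exact permutation p = 0.30, adjusted 0.60). Inside the coverage sets it was -2.7 points (A) and -2.31 points (B), and -0.899 points without SAM replicate 1. Weighted by coverage it was -1.89 points, and the groups then did not overlap (exact permutation p = 0.10). Over all 29 CpGs with each library using those it listed, 9 in SAM replicate 2 and 8 in control replicate 2, it was -5.07 points. Over the same 29 CpGs in the 4 libraries it reversed to 2.31 points, with SAM at 57.3 and 61.1% and control at 56.6 and 57.2%. With 2 libraries against 2 the smallest exact permutation p is 0.333, so the lack of overlap there carries no test.

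VDR stood at 0.0831, 2.06 and 1.46% with SAM and 0.968, 2.26 and 2.2% in controls over 15 CpGs, a difference of -0.605 points (SE 0.721) between overlapping groups (exact permutation p = 0.50, adjusted 0.667). It was -1.5 points in coverage set A and -0.495 points in set B, and -0.0461 points without SAM replicate 1, the lowest library. NR3C1 stood at 0.443, 0 and 0% with SAM and at 0% in all 3 controls over 10 CpGs, a difference of 0.148 points (SE 0.148; exact permutation p = 1, adjusted 1). Every methylated read in that NR3C1 comparison came from SAM replicate 1, without which both groups were at 0, so set A differed by 0.443 points and set B by 0. Over all 71 NR3C1 CpGs, with each library's own, the difference was -0.0594 points. Groups did not overlap in 9.18% of the 4 kb windows genome-wide, and with equal weights over CpGs read in all libraries they overlapped at each of the 4 promoters.

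**Figure D3:**
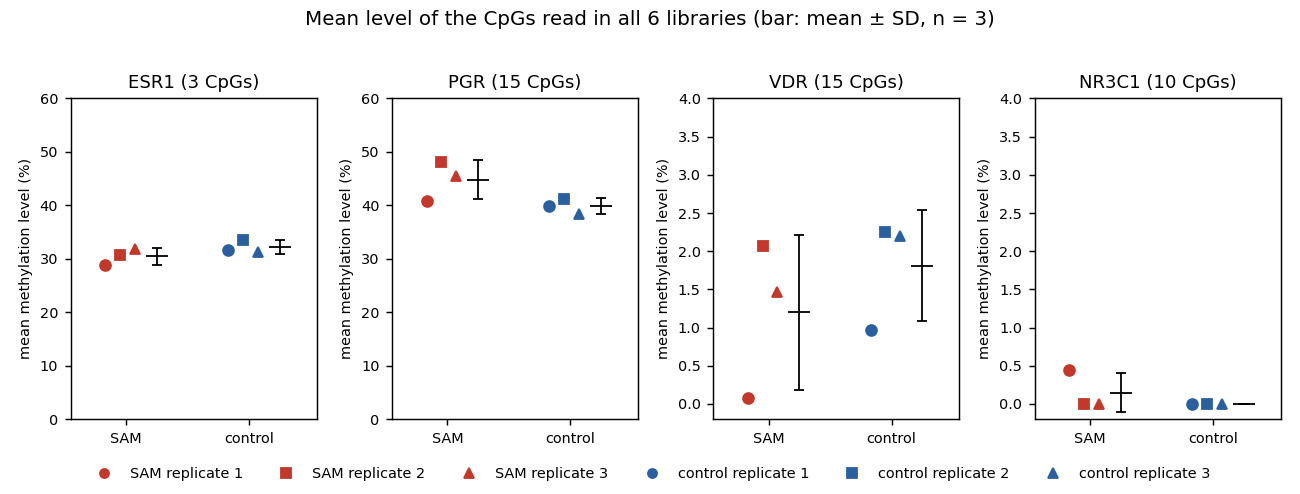
Mean methylation level (percent) of the CpGs read in all 6 libraries at each promoter; symbols are libraries and bars show the mean ± SD (n = 3) of each group. SAM and control libraries overlap in every panel of these equally weighted means. The vertical scale is 0 to 60% for ESR1 and PGR and reaches 4% for VDR and NR3C1.

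Single CpGs were tested with edgeR's quasi-likelihood test on methylated and unmethylated reads, fitted over all 490928 CpGs that had both kinds of read, and a CpG was called at an adjusted p under 0.05. Of the 146 receptor CpGs 83 could be tested, 28 at ESR1, 26 at PGR, 12 at VDR and 17 at NR3C1, and the others were left out because all their reads were alike. None was called, against 0% (0 CpGs) genome-wide. At an unadjusted p under 0.05 there was 1 of 83, against 2.94% of all tested CpGs. Groups did not overlap at 7 of the 146 CpGs (2 at ESR1, 5 at PGR), or 4.79%, against 8.1% of CpGs genome-wide. For the 4 genes together this share is below the background. However, 42.5% of their CpGs had no methylated read, against 25.8% genome-wide, and at such CpGs groups cannot be apart. Among CpGs between 20 and 80% the share was 15.2% for the 4 genes (33 CpGs) and 17.1% genome-wide. At PGR alone the share was 19.2% over all its CpGs and 25% over those between 20 and 80% (16 CpGs). The shares were not matched for the number of libraries either, and groups of fewer libraries lie apart more easily. Of the 146 CpGs 43 were read in all 6 libraries, against 336571 of 686608 genome-wide. PGR CpGs share reads within stretches, and these differences in shares were not tested.

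The CpG with the smallest p lay in PGR, 1247 bases downstream (100999297 on chromosome 11), where the difference was also the largest of the 146. It stood at 0% (0 of 21 reads) and 20.2% (21 of 104) in SAM replicates 1 and 3 and at 65.5% (38 of 58) and 100% (20 of 20) in control replicates 2 and 3. Neither SAM replicate 2 nor control replicate 1 listed it, so both entered the fit with 0 reads. The difference was -72.7 points (SE 20, 2 libraries a group) without overlap, and the edgeR p was 0.0296 with an adjusted p of 0.937. All its reads were on the minus strand. The CpG 5 bases away, at 1242 bases, was read on the plus strand alone and went the other way, at 100 and 93.1% with SAM against 44, 85.7 and 72.4% in controls, 29.2 points higher with SAM (edgeR adjusted p = 0.937). Adjacent CpGs read from different strands thus differed in opposite directions.

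Groups were also apart at 3 other PGR CpGs. At 1302 bases SAM replicates 1 and 3 stood at 7.14 and 20% and control replicates 1 and 3 at 26.1 and 92.3%, from 23 to 30 reads (edgeR adjusted p = 0.937). At 1770 bases, named after its values were seen, all 6 libraries were read, from 39 to 212 times, and SAM stood at 51.1, 66.7 and 66.5% against 49.1, 37.5 and 40.8% in controls. The difference there was 19.0 points (SE 6.2, edgeR adjusted p = 0.937). At 1145 bases, likewise named after its values were seen, SAM stood at 7.37, 9.09 and 6.67% and control replicates 1 and 3 at 18 and 16.7%. The 5 PGR CpGs without overlap did not share a direction, with 2 higher and 3 lower in SAM.

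ESR1 had its largest difference 20 bases downstream of the start, at 69.2 and 66.7% in SAM replicates 1 and 3 and 51.1 and 27.0% in control replicates 1 and 3, from 33 to 45 reads. SAM was 28.9 points higher (SE 12.1, edgeR adjusted p = 0.937). The 95% exact intervals of SAM replicate 1 (52.4 to 83%) and control replicate 1 (35.8 to 66.3%) overlapped, and those of SAM replicate 3 (48.2 to 82%) and control replicate 3 (13.8 to 44.1%) did not. At 16 bases the level was 19.4 and 51.6% with SAM and 19.5 and 5.26% in controls, a difference of 23.1 points (edgeR adjusted p = 0.937). The 2 SAM libraries thus differed from each other by more than the groups did. The smallest ESR1 p, 0.0866 (adjusted 0.937), belonged to the CpG at 1496 bases, at 100% in SAM replicates 1 and 3 and 93.8, 100 and 91.2% in controls. The other ESR1 CpG without overlap, named after its values were seen, was the deep one at 777 bases, at 15, 16.9 and 14.8% with SAM and 17.7, 17.9 and 19.6% in controls, a difference of -2.88 points (edgeR adjusted p = 0.947).

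**Figure D4:**
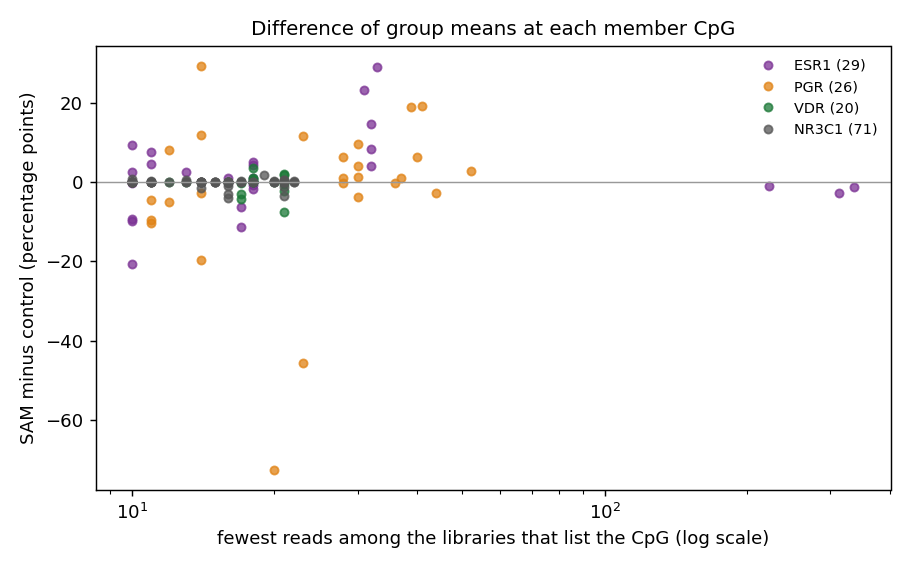
SAM minus control difference of group means (percentage points) at each of the 146 CpGs against the fewest reads among the libraries that list it (log axis). Differences beyond 20 points in either direction are confined to ESR1 and PGR CpGs whose shallowest library had at most 33 reads, and the 3 ESR1 CpGs with at least 222 reads in every library differed by -1.02 to -2.88 points.

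VDR and NR3C1 differences were smaller. At VDR the largest was -7.58 points at 627 bases upstream (edgeR adjusted p = 0.937) and the smallest edgeR p was 0.114 (adjusted p = 0.937), at 130 bases downstream, where methylated reads were seen in control replicates 2 (1 of 17) and 3 (7 of 224) and in no SAM library. The CpGs at 621 and 605 bases upstream, with edgeR p of 0.124 and 0.131 (adjusted 0.937), had methylated reads in SAM replicate 3 alone, 6 of 105 and 5 of 104. At NR3C1 the largest was -4.17 points at 735 bases downstream. Its 3 smallest p, 0.0974 at 977 bases and 0.0986 at 728 bases downstream and 0.0984 at 555 bases upstream (edgeR, adjusted 0.937), belonged to CpGs where 1 library held all the methylated reads.

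Differences changed sign along the windows. In bins of 500 bases, over the 4 libraries without replicates numbered 2, the 13 ESR1 CpGs 9 to 173 bases downstream averaged 60 and 66.7% with SAM and 56.9 and 54.0% in controls, 7.91 points higher with SAM. The ESR1 bins from 500 and from 1500 bases downstream differed by -3.56 and -3.94 points. At PGR the bins from 500, 1000 and 1500 bases differed by 3.75, -3.56 and 3.56 points. VDR bins differed by -1.53 points (1000 to 501 bases upstream), 0.118 points (up to the start) and -0.238 points (after it). NR3C1 bins differed by 0.0618 and 0.0196 points upstream and by -0.588 points from 500 to 999 bases downstream. With 2 libraries a group these bin values carry no test.

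Tiles of 1 kb with at least 3 CpGs read in all libraries were tested in the same way over 33583 tiles, and 6 overlapped the windows. None was called, against 0% genome-wide, and none had an unadjusted p under 0.05, against 3.13% of all tiles. The tile over the PGR start-distal CpGs (100998001 to 100999000 on chromosome 11), of which some CpGs lie beyond the 2 kb window, held 58.3, 66.4 and 70.0% methylated reads with SAM and 59.1, 62.8 and 59.0% in controls, 4.63 points higher with SAM (edgeR adjusted p = 0.9999). This difference was 7.94 points without SAM replicate 1, 2.08 points without SAM replicate 3 and 9.50 points at a minimum of 20 reads. The next (100999001 to 101000000) differed by 0.761 points, and by -0.952 points without control replicate 3. At ESR1 (152129001 to 152130000 on chromosome 6) SAM stood at 29.6, 31.7 and 32.1% and controls at 32.4, 34.2 and 32.5%, without overlap. The difference was -1.89 points (edgeR adjusted p = 0.9999), or -1.12 points without SAM replicate 1. This tile holds the same 3 CpGs as the ESR1 promoter mean, and its values repeat that mean weighted by coverage. The VDR tiles (48298001 to 48299000 and 48299001 to 48300000 on chromosome 12) differed by -0.678 and -0.639 points and the NR3C1 tile (142783001 to 142784000 on chromosome 5) by 0.207 points, with an adjusted p of 0.9999 each. The first VDR tile differed by 0.233 points without control replicate 2, and the second by 0.337 points without SAM replicate 1 and 0.305 points without control replicate 3.

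The spread between libraries was set beside counting error. At ESR1 CpGs between 20 and 80% the median SD inside a group was 14.5 points, where counting reads allows 7.6, and at PGR it was 11.8 points against 5.56. Genome-wide the same class had 11.5 points against 6.79. At the 8 ESR1 CpGs above 80% the values were 2.54 and 2.41 points, and in this class genome-wide 2.52 and 1.86 points. Libraries of 1 group therefore spread beyond counting error at intermediate CpGs. They spread about as far as counting error at the 8 full ESR1 CpGs, but beyond it at such CpGs genome-wide. Strands read separately differed as well, but counting error was not set beside those differences. At ESR1 15 CpGs had at least 10 reads on both strands of some library, and the strands differed by a median of 14.4 points over 40 such readings. Control replicate 1 at 43 bases downstream, for instance, had 72.7% on the plus strand (33 reads) and 27.3% on the minus strand (11 reads), and SAM replicate 1 had 15.4% (26 reads) and 71.4% (14 reads). In NR3C1, with 20 CpGs and 40 readings at levels near 0, the median difference between strands was 0. All VDR CpGs but 3 and all PGR CpGs but 1 were never read at that depth on both strands.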

How the data were processed

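The data are 6 lists of CpG positions from bisulfite sequencing of PC-3 DNA. Per the file headers, each deposited list has for every position a strand, a read count (coverage) and 2 columns with the percent of C and of T. The submitters' processing notes list, without roles, CASAVA 1.8.2, FastQC 0.10.0, methylKit 0.5.3 and Bismark 0.7.4, and hg19 as build. Filters on reads, handling of duplicates and the library type are not stated there. No list holds a position under 10 reads.

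Methylated reads were recovered as coverage times percent C, and whole read numbers gave back every deposited percent to its 2 decimals. The minus-strand C was joined to the plus-strand C 1 base before it. Site and tile tests used edgeR 4.0.16 (R 4.3.3) with sample effects and Benjamini-Hochberg adjustment, and promoter means an exact permutation test. A library that did not list a CpG entered the site fit with 0 reads. Other steps ran in Python 3.11.15 (scipy 1.17.1, pandas 2.3.3, numpy 2.4.6). The site tests were also run on simulated data with known changes. The outcome is not given here, so the text does not show how large a change these tests would find. Named CpGs are, per gene, the one nearest to the start, the one with the largest difference and the 3 with the smallest p, with every tested tile and each 500 base bin of at least 3 CpGs, and other CpGs are given as examples of the profile. The members, lists and tests were chosen with earlier results of these data known. Sequences of 3 of the 4 genes were found in the RefSeq table. Starts of other nuclear receptors in hg19 were not used here. Alternatives tried were a minimum of 20 reads, other CpG sets, weights, windows, strands, tiles and tests (limma 3.58.1 on log2 ratios, a quasi-binomial test), a replicate block, leaving out each library, and, chosen after seeing the data, 4 libraries without the replicates numbered 2.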

Additional observations from a re-analysis of the deposited data

How the results depend on the processing

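The smallest adjusted p of any named CpG or tile over all settings was 0.655, and exact tests of promoter means could not reach 0.05 in this design. With each library's own listed CpGs, the sign of the promoter difference reversed for PGR (-2.4 points) and NR3C1 (-0.0594). Those means compare libraries over different CpGs. Over CpGs shared by the 4 libraries without replicates numbered 2, it reversed for ESR1 (2.31) and NR3C1 (-0.194). The cause was not tested. Leaving out each library gave -2.4 to -0.899 points for ESR1, 3.34 to 6.99 for PGR, -1.04 to -0.0461 for VDR and 0 to 0.222 for NR3C1. Of 24 named CpGs and tiles, 4 changed sign in 6 of 168 settings: the PGR CpG at 796 bases (0.629 and 1.37 points, range -1.45 to 1.37), the PGR tile from 100999001 (-0.952, range -0.952 to 2.98), the VDR tile from 48298001 (0.233, range -1.15 to 0.233) and the VDR tile from 48299001 (0.337 and 0.305, range -1.24 to 0.337), each on leaving out 1 library. A named CpG was not tested without a library of a group in which only 2 libraries listed it. For the PGR CpG at 1247 bases, among others, no library was therefore left out. A difference of 0 counted as unchanged. These counts thus do not show how stable the least covered CpGs are. Genome-wide, edgeR called 0 CpGs, 1 with the replicate block, 4 without SAM replicate 2 and 8 without SAM replicate 3 (0 to 8 on leaving out each library). Limma and the quasi-binomial test called 0 CpGs (10487 and 19571 unadjusted) and 0 tiles (1400 and 2095 unadjusted). Windows of 4 kb without overlap numbered 961, 606 at 20 reads and 419 with at least 20 CpGs, out of 10469, 6294 and 4537. Equal replicate numbers did not deviate together (correlations -0.00509, 0.00846 and -0.00791), and with the replicate block, an exact sign-flip test, the differences were -1.74, 4.98, -0.605 and 0.148 points for ESR1, PGR, VDR and NR3C1, with 0 tiles called. At a minimum of 20 reads NR3C1 kept no CpG in all libraries, and minus-strand reads alone gave none for ESR1 and plus-strand reads none for VDR. Depth limits the CpGs of replicates numbered 2 most.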
